A study of Mus musculus with 374 samples.

Results

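The genes described here are 6 mouse genes of B cell receptor signalling, Cd22, Cd72, Syk, Blnk, Btk and Plcg2, of the 19829 mouse genes in the deposited count table. They were chosen by name for their place in the pathway, and all 6 had a row in the table. Single cells were sorted into the wells of 1 plate of 384 wells from 1 female C57BL/6 mouse aged 10 to 13 weeks, with no treatment or engineered allele named in the labels. Bone marrow gave 44 B lymphocytes (gated B220+ with low FSC-A, the forward scatter that tracks cell size), 96 granulocytes (Mac1+ Gr1+), 96 erythroblasts (Ter119+ CD44+ with middle or high FSC-A) and 95 progenitor/stem cells (Lin- Kit+ Sca1+). The thymus gave 43 T lymphocytes (CD3+ with low FSC-A), so the lymphocyte comparison is also one between organs, and the 2 cannot be told apart. CEL-seq2 counts the 3′ ends of transcripts by UMI, a random tag that lets each captured molecule be counted once.

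The B cell receptor is a membrane immunoglobulin paired with Cd79a and Cd79b, whose cytoplasmic tails carry the signalling motifs. After antigen binding, Src family kinases phosphorylate these tails, and Syk docks on them and phosphorylates the adaptor Blnk. Blnk brings together Btk, a Tec family kinase, and Plcg2, the phospholipase that makes the second messengers for calcium release and protein kinase C. Cd22 and Cd72 are coreceptors whose tails recruit phosphatases and so restrain the signal. In the bone marrow most of these proteins also serve the pre-B cell receptor, through which B cell precursors pass a checkpoint. T cells run a parallel pathway with relatives such as Zap70, Lcp2 and Plcg1, and myeloid cells use several of the same proteins below Fc receptors and integrins.

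Each population was 1 sample of 1 mouse. The UMIs of its wells were summed and divided by the UMIs on mouse genes to give CPM, the UMIs per 1000000 UMIs. Intervals are 95% exact intervals for counting error alone, no value has a biological replicate, and no p-value was computed. The sums were 135808 UMIs for B lymphocytes, 200396 for T lymphocytes, 403506 for granulocytes, 666728 for erythroblasts and 834812 for progenitor/stem cells. In B lymphocytes, the shallowest population, 3 UMIs, the floor used for sums under it, corresponded to 22.1 CPM. All 7 B markers (Cd79a and Cd79b, Ms4a1, Ighm, Vpreb3, and the factors Ebf1 and Pax5) had UMIs in B lymphocytes, together 9558 CPM, against 121 to 309 CPM in the other populations, where Pax5 was at 0. Pax5 itself had 2 UMIs in B lymphocytes. Markers of other cells were also counted there, with 29188 CPM on 7 erythroblast markers and 6693 CPM on 8 granulocyte markers. B lymphocyte well A8 went against its label. Its Gr1 fluorescence was 15209 arbitrary units against a median of 26.0 in the B wells, and it held 133 UMIs of S100a8 and none of the B markers. Of the 6 genes it held only Syk, with 3 UMIs.

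A gene was called higher in a population when its CPM was at least 2-fold that in the other, with sums under 3 UMIs set to 3, and never for a population with 3 UMIs or fewer. Cd22, Cd72, Syk and Blnk were higher in B lymphocytes than in every other population, which makes 4 of the 6 genes in each comparison. Of the 9512 genes with at least 20 UMIs, the same rule called 8.90% higher in B lymphocytes against T lymphocytes, 23.0% against granulocytes, 26.1% against erythroblasts and 8.26% against progenitor/stem cells. Btk was called lower in B lymphocytes than in granulocytes and progenitor/stem cells, where 9.93% and 14.8% of the genes were called lower. Plcg2, with 7 UMIs over all wells, was below the 20 UMIs asked of the background and was called in no comparison. All these calls were the same without well A8. The calls of Btk depended on the scaling and the wells summed, because its B lymphocyte sum was set to the floor. Against granulocytes its log2 ratio, -1.09 with the floor, missed the 2-fold limit without the most abundant gene Gm42418 and the haemoglobin and mitochondrial genes (-0.91) and without wells B19 to B24 (-0.88). With the B lymphocytes of plate row A or row B alone it was -0.15 and -0.03, and against progenitor/stem cells -0.34 and -0.23. With so few UMIs in a row the floor alone keeps the ratio within 2-fold, so the rows could not show whether the calls held.

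**Figure D1:**
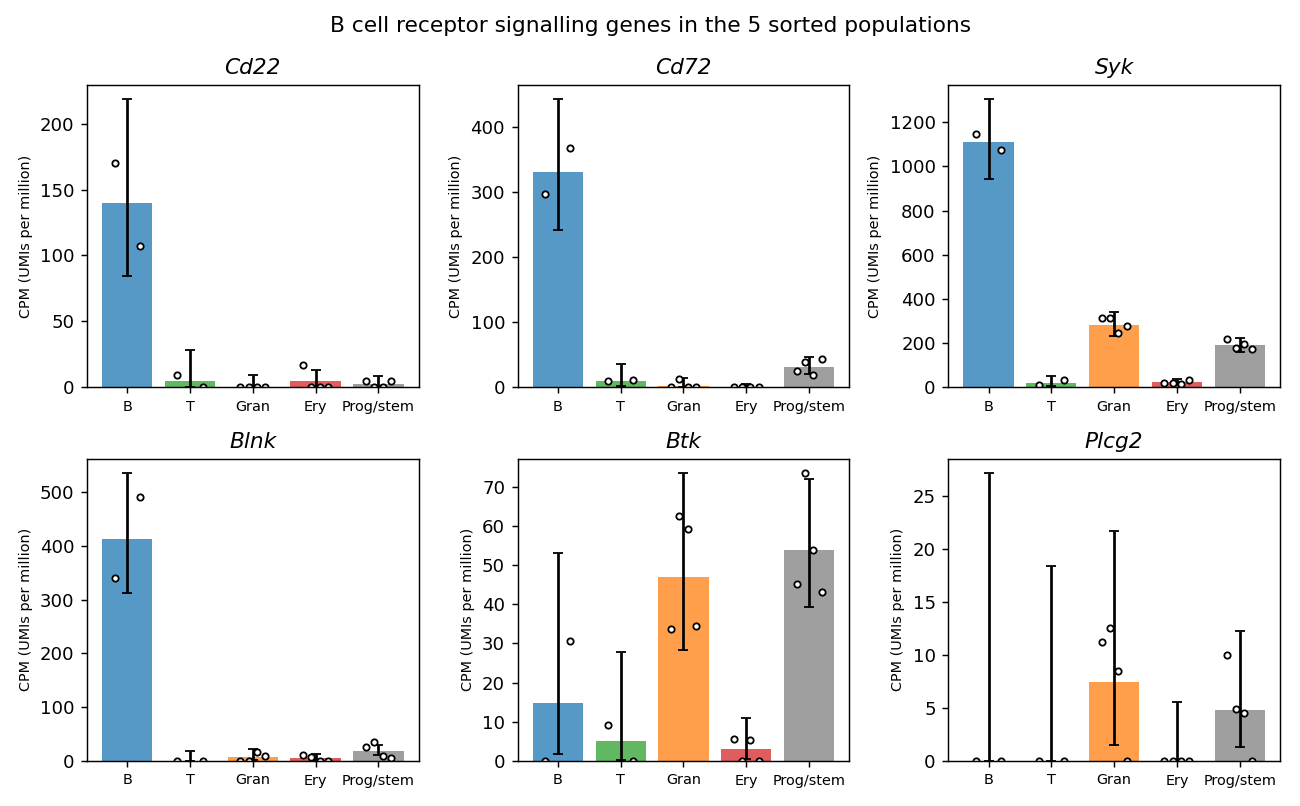
Summed level (CPM) of each of the 6 genes in the 5 sorted populations, with a scale of its own for each gene. Bars give the population sum, error bars the 95% exact Poisson interval and open points the plate rows (2 rows for B and T lymphocytes, 4 for the others). Cd22, Cd72, Syk and Blnk peak in B lymphocytes, and Syk keeps 283 CPM in granulocytes. The highest bars of Btk are those of progenitor/stem cells and granulocytes, but their ratios to B lymphocytes are not clear of counting error.

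Cd22, a sialic acid-binding lectin whose tail recruits the phosphatase Ptpn6, lies on chromosome 7 (7:30865402-30880342, reverse strand, GRCm38, GENCODE M21). It had 19 UMIs in B lymphocytes, 1 in T lymphocytes, 0 in granulocytes, 3 in erythroblasts and 2 in progenitor/stem cells. B lymphocytes stood alone at 139.9 CPM (84.2 to 218), and the order of the other 4 could not be told from counting error. The level was 28.0-fold (4.46 to 1165) that of T lymphocytes, 31.1-fold (9.15 to 164) that of erythroblasts and 58.4-fold (14.1 to 517) that of progenitor/stem cells. Against granulocytes, listed at 0, it was at least 18.8-fold higher at the floor of 3 UMIs over the whole population, and the exact interval began at 13.9-fold. Exons of Cd22 overlap those of Gm29439 on the other strand, and the use of strand in the counting is not given in the sources used here, so these reads could come from either gene.

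Cd72, a C-type lectin that also recruits Ptpn6, lies on chromosome 4 (4:43446462-43454628, reverse strand) and its exons overlap those of Tesk1 on the other strand. It had 45 UMIs in B lymphocytes, 2 in T lymphocytes, 1 in granulocytes, 0 in erythroblasts and 26 in progenitor/stem cells. Unlike Cd22 it therefore had a second population with more than a few molecules, progenitor/stem cells, at 31.1 CPM (20.3 to 45.6) against 331 CPM (242 to 443) in B lymphocytes. The ratio between these was 10.6-fold (6.42 to 18.0). Progenitor/stem cells were in turn 12.6-fold (2.06 to 515) above granulocytes, while their 3.12-fold (0.781 to 27.1) ratio to T lymphocytes did not stand clear of counting error.

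Syk, the kinase that docks on the phosphorylated receptor tails, lies on chromosome 13 (13:52583173-52648792, forward strand) and shares no exon with another gene of the annotation. It was the member with the most UMIs, with 151 in B lymphocytes, 4 in T lymphocytes, 114 in granulocytes, 14 in erythroblasts and 158 in progenitor/stem cells. The levels fell into an order of B lymphocytes at 1112 CPM (942 to 1304), granulocytes at 283 CPM (233 to 339), progenitor/stem cells at 189 CPM (161 to 221), and erythroblasts and T lymphocytes at 21.0 and 20.0 CPM. The first 3 steps of this order were larger than counting error. B lymphocytes exceeded granulocytes 3.94-fold (3.07 to 5.06), granulocytes exceeded progenitor/stem cells 1.49-fold (1.16 to 1.91), and progenitor/stem cells exceeded erythroblasts 9.01-fold (5.22 to 16.9). Erythroblasts and T lymphocytes did not differ beyond it, with a ratio of 1.05 (0.330 to 4.39). By plate row Syk was at 1074 and 1147 CPM in B lymphocytes, 246 to 314 CPM in granulocytes and 172 to 216 CPM in progenitor/stem cells, so no plate row changed the order. Scaling to the ERCC controls did change it, since the log2 ratio of B lymphocytes was then 1.61 over granulocytes and 1.23 over progenitor/stem cells, which puts progenitor/stem cells above granulocytes.

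Blnk, the adaptor that Syk phosphorylates, lies on chromosome 19 (19:40928927-40994535, reverse strand). It had 56 UMIs in B lymphocytes, 0 in T lymphocytes, 3 in granulocytes, 3 in erythroblasts and 15 in progenitor/stem cells. At 412 CPM (311 to 535) in B lymphocytes it was 22.9-fold (12.8 to 43.7) above progenitor/stem cells, 55.5-fold (18.0 to 277) above granulocytes and 91.6-fold (29.8 to 458) above erythroblasts. In T lymphocytes it was at least 27.5-fold lower at the same floor, and the exact interval began at 21.7-fold. Kinase and adaptor thus differed in breadth. Syk was well counted in 3 populations, whereas Blnk had 72.7% of its UMIs in the B wells alone.

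Btk, a kinase that B cells need to mature, lies on chromosome X (X:134542336-134583570, reverse strand). It had 2 UMIs in B lymphocytes, 1 in T lymphocytes, 19 in granulocytes, 2 in erythroblasts and 45 in progenitor/stem cells. Unlike the other genes with over 20 UMIs, it was highest outside B lymphocytes, with 53.9 CPM (39.3 to 72.1) in progenitor/stem cells and 47.1 CPM (28.3 to 73.5) in granulocytes, which could not be told from each other by counting error (ratio 1.14, 0.656 to 2.07). Both were above erythroblasts, 18.0-fold (4.69 to 153) and 15.7-fold (3.79 to 139). B lymphocytes, at 14.7 CPM (1.78 to 53.2), were called lower than both by the fold rule, but the intervals of the ratios, 3.20-fold (0.771 to 28.3) for granulocytes and 3.66-fold (0.956 to 31.1) for progenitor/stem cells, include 1. At this depth a difference in either direction between B lymphocytes and these populations was not detectable from counting error.

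Plcg2, the phospholipase of the pathway, lies on chromosome 8 (8:117498291-117635142, forward strand). It had 0 UMIs in B lymphocytes, 0 in T lymphocytes, 3 in granulocytes, 0 in erythroblasts and 4 in progenitor/stem cells. The 0 in B lymphocytes corresponds to up to 22.1 CPM at the floor of 3 UMIs and to an exact upper limit of 27.2 CPM, both above the 7.43 CPM of granulocytes and the 4.79 CPM of progenitor/stem cells, so Plcg2 was too thinly counted for any order of the populations.

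Short stretches upstream of 3 start sites are shown, each with a motif of a factor that works in B cells. They lie in the 250 bases before the RefSeq starts (GRCm38.p6). Windows were given for all 6 genes, with 2 for Syk. They were searched on both strands for the EBF1 motif, TCCC and GGGA with any 2 bases between them (in 0.779% of 32851 windows of the same length), the PU.1 motif GAGGAAGT (2.44%), the octamer ATGCAAAT (1.6%), the E2A E-box CAGGTG (17.2%) and the RUNX1 motif TGTGGT (14.0%). The stretches read 5′ to 3′ on the strand of the gene, with the match in capitals.
Cd22, EBF1 motif 49 bases before the start, in a Cd22 intron of the M21 annotation, chr7:30879058-30879087: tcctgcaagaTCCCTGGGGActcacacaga
Cd72, PU.1 motif on the other strand, 49 bases before the start, outside any M21 exon, chr4:43454657-43454686: gccaaagacctACTTCCTCttttatgactt
Blnk, octamer on the other strand, 130 bases before the start, in a Blnk exon of the M21 annotation, chr19:40994333-40994362: tactggaagggATTTGCATgcccaataagg
The EBF1, PU.1 and octamer letters each stood in 1 of the 7 windows, the ones shown. The E2A letters stood in the windows of Blnk, Cd22 and Plcg2 and in both of Syk, 5 of 7 windows in all. Syk, which was high in B lymphocytes, and Plcg2, which had 0 UMIs there, held no other of the 5 motifs. The window of Btk held none of the 5 motifs and no window held the RUNX1 letters. A match shows only that the letters are there, and no measurement of binding was part of the data.

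Most B lymphocytes held UMIs of several of these genes at once. Syk had UMIs in 36 of 44 B wells, Blnk in 31, Cd72 in 26 and Cd22 in 12, with medians per well of 3, 1, 1 and 0 UMIs. All 4 had UMIs in 6 wells, 3 of them in 17, 2 in 11, 1 in 8 and none in 2. The number followed depth, with a median of 1024.5 UMIs on mouse genes in the wells with none and 4036.5 in the wells with all 4. Kinase and adaptor were found together in 28 wells, Syk without Blnk in 8, Blnk without Syk in 3 and neither in 5. Btk had 1 UMI in each of 2 B wells.

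Because the populations differed in depth, shares of wells were also compared after each well was thinned at random to 1000 UMIs, which left out 1 B lymphocyte, 1 T lymphocyte, 2 granulocytes and 1 erythroblast. Before thinning, Syk had UMIs in 81.8% of B lymphocytes (67.3 to 91.8) and 80.0% of progenitor/stem cells (70.5 to 87.5), whose median depths were 3028.5 and 7959 UMIs. After thinning the shares were 58.1% (42.1 to 73.0) and 18.9% (11.6 to 28.3), with 29.8% (20.8 to 40.1) in granulocytes, the same order as the CPM. The like shares for Syk before thinning thus went with a large difference in level. Blnk fell from 70.5% to 41.9% of the B wells, Cd72 from 59.1% to 25.6% and Cd22 from 27.3% to 14.0%. In T lymphocytes, thinned shares were 2.38% for Syk and 0 of 42 wells for the other 5. Thinned shares of Btk were 4.65% in B lymphocytes, 4.26% in granulocytes and 4.21% in progenitor/stem cells, where each share rested on at most 4 wells and gives no order.

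**Figure D2:**
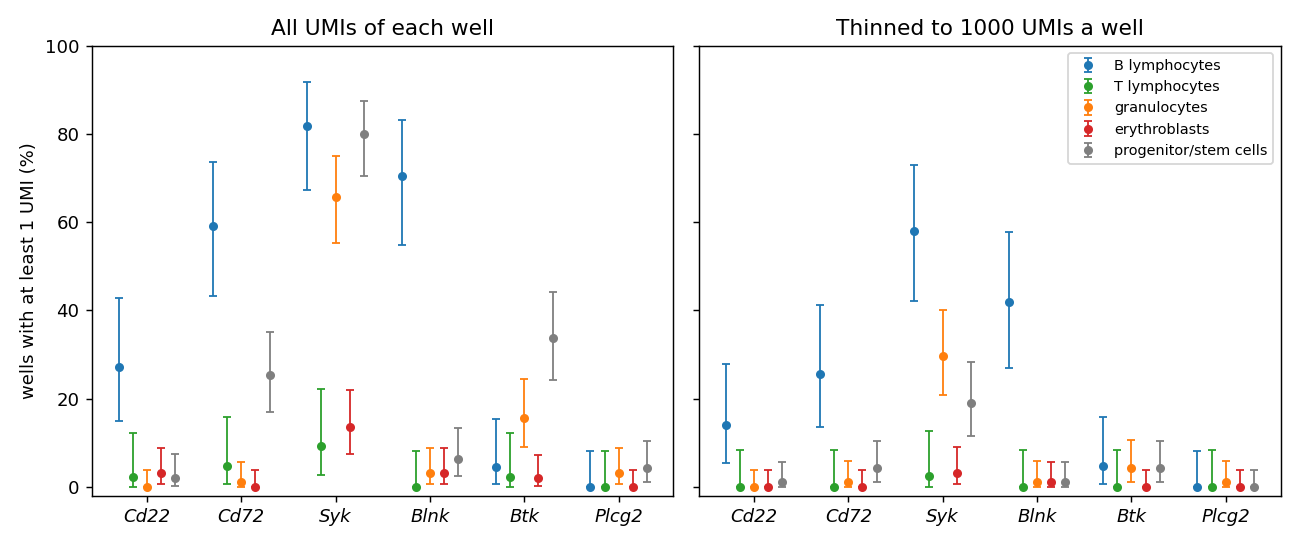
Percentage of wells with at least 1 UMI of each gene, from all UMIs of a well (left) and after thinning each well to 1000 UMIs (right), in the 5 populations, with 95% exact binomial intervals. The shares for Syk in B lymphocytes and progenitor/stem cells, 81.8% and 80.0% on the left, stand at 58.1% and 18.9% on the right.

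Molecules outside B lymphocytes were set beside 7 B markers, as each gene's CPM in another population in percent of its CPM in B lymphocytes. Here Igkc, the kappa light chain gene, stood in for Pax5, which had too few UMIs. The markers, taken as genes that the other populations should lack, were at 0.869% to 4.6% of the B level in T lymphocytes, 0.216% to 3.29% in granulocytes, 0.357% to 2.23% in erythroblasts and 0.262% to 4.31% in progenitor/stem cells. Syk exceeded these ranges in 2 populations, with 25.4% (19.7 to 32.6) in granulocytes and 17.0% (13.5 to 21.4) in progenitor/stem cells, and lay within them in T lymphocytes (1.80%) and erythroblasts (1.89%). Cd72 exceeded the range in progenitor/stem cells, at 9.40% (5.57 to 15.6). Blnk in progenitor/stem cells, at 4.36% (2.29 to 7.81), stood level with the highest marker, Ighm. There Ighm had UMIs in 45 of the 95 wells and Cd79b, at 2.54%, in 27. Whether progenitor/stem cells lack these markers was not tested. The interval of Cd79b (1.65 to 3.77) overlapped that of Blnk. Igkc, the marker next below Cd79b, was at 1.39% (0.968 to 1.93), under the interval of Blnk. In granulocytes the few molecules of Cd72 and Blnk were within the range of the markers and Cd22 was at 0, and the 3.22% of Cd22 in erythroblasts had an interval (0.610 to 10.9) that covers it.

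**Figure D3:**
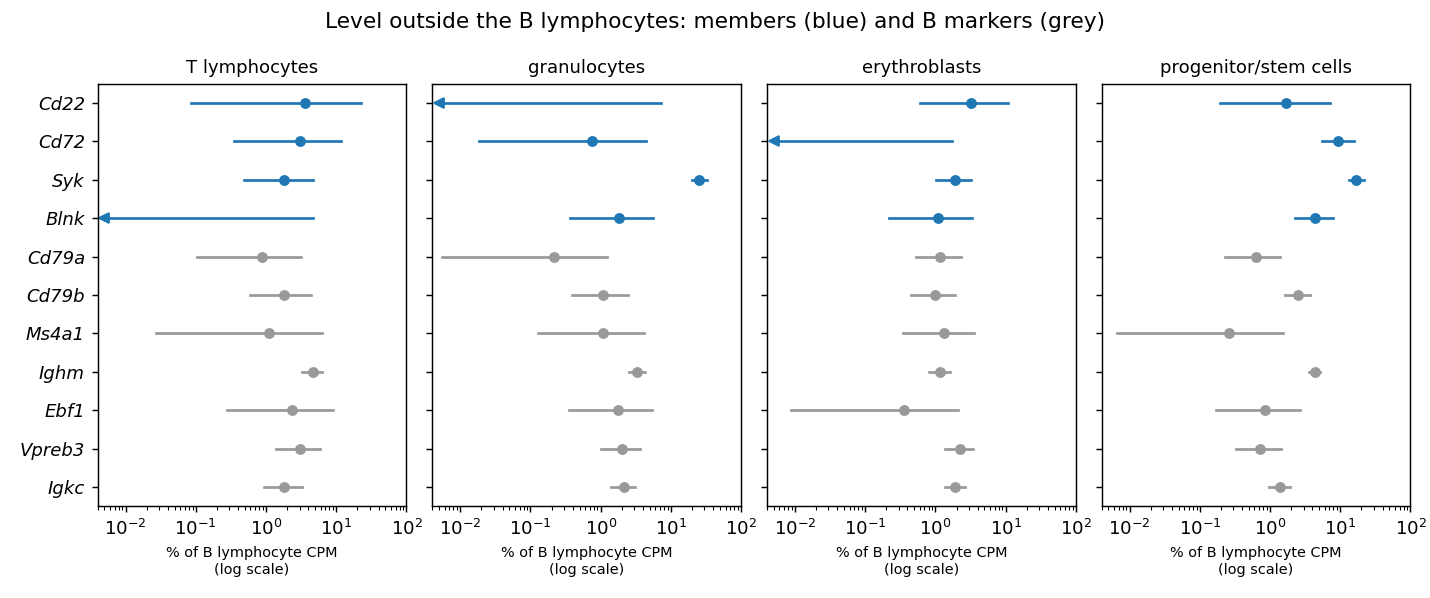
Level in each population outside B lymphocytes in percent of the level in B lymphocytes (log scale) for Cd22, Cd72, Syk and Blnk (blue) and 7 B markers (grey), with 95% exact intervals. Arrowheads at the left edge mark genes with 0 UMIs in that population. Syk in granulocytes (25.4%) and in progenitor/stem cells (17.0%) and Cd72 in progenitor/stem cells (9.40%) lie to the right of every marker.

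In progenitor/stem cells the 15 UMIs of Blnk came from 6 of 95 wells, with 7, 3, 2, 1, 1 and 1 UMIs. These wells had a median of 10201.5 UMIs on mouse genes, against 7959 for the population. Of the 6 wells, 4 held Dntt, the terminal transferase of early lymphoid cells, and these 4 held 13 of the 15 UMIs, while Dntt was found in 40 of all 95 wells. Ighm was present in 5 of the 6 (45 of all 95), Flt3 in all 6 (75 of 95), Cd79a in 1 (5 of 95) and Cd79b in none (27 of 95). The well with 7 UMIs of Blnk held 73 of Dntt and none of Kit, a gene found in 93 of the 95 wells. Cd72 was spread more evenly, with 26 UMIs over 24 wells and at most 2 in one well. Of these 24 wells 7 held Dntt and 21 held Flt3, a gene found in 75 of all 95.

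In granulocytes the 114 UMIs of Syk came from 63 of 96 wells, with at most 5 in one well. S100a8 was present in 62 of the 63 and in 94 of all 96, so it hardly sets these wells apart. Of the monocyte and macrophage list, Ccr2 was found in 17 granulocyte wells, Csf1r in 28 and Ly86 in 14. They were present in 12, 20 and 12 of the 63, wells that held 24, 44 and 25 of the 114 UMIs. The 19 UMIs of Btk came from 15 wells, 4 of them with Ccr2, 5 with Csf1r and 3 with Ly86. All 6 genes of the monocyte and macrophage list had UMIs in granulocytes, together 1051 CPM against 13.5 to 184 CPM in the other populations, and their part in the levels of Syk and Btk was not tested.

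Within B lymphocytes, no difference by cell size stood clear of counting error for these genes. The 22 wells with FSC-A at or above the median had 79 UMIs of Syk and the other 22 had 72, a log2 ratio of -0.11 (-0.59 to 0.37). The log2 ratios were 0.28 (-0.53 to 1.12) for Blnk, 0.34 (-0.57 to 1.29) for Cd72 and -0.09 (-1.54 to 1.39) for Cd22. Of the other B lineage genes, Rag1, a recombinase gene of precursors, had a log2 ratio of -1.94 (-2.72 to -1.21) and the mature B list one of -0.82 (-1.29 to -0.36), while Vpreb3, at 0.42 (-0.0044 to 0.84), was not clear of counting error.

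The B220 fluorescence recorded at the sort split off 7 B wells, at 3224 to 4783 arbitrary units, from the other 37, at up to 2458. The limit of 3000 was chosen after the values had been seen. Syk had 1, 0, 0, 2, 0, 0 and 1 UMIs in these 7 wells, in order of rising B220, and 147 UMIs in the other 37. It was at 225 CPM (61.4 to 577) against 1245 CPM (1052 to 1464), 5.53-fold lower (2.11 to 20.6). No such difference stood clear of counting error for the other 3 genes. Log2 ratios of high over low B220 were 0.15 (-1.14 to 1.24) for Blnk, -0.62 (-2.57 to 0.84) for Cd72 and 1.62 (-0.06 to 3.11) for Cd22, and of the receptor's own genes Cd79b was at -0.32 (-1.07 to 0.35), Cd79a at 0.89 (0.30 to 1.45) and Ighm at -0.45 (-0.85 to -0.07). Precursor genes were lower in the same 7 wells and mature B genes higher. The log2 ratio was -1.65 (-2.99 to -0.57) for the 6 genes of the pro-B and pre-B list, -2.89 (-4.78 to -1.51) for Vpreb3, 3.13 (2.68 to 3.60) for the 6 genes of the mature B list and 3.79 (3.09 to 4.52) for Ighd. The median depth was 1904 UMIs in the 7 wells and 3080 in the 37, and 4 of the 7 and 16 of the 37 stood in plate row A. Within row A the log2 ratio of Syk was -2.09, and in row B, where the 3 wells with high B220 held no Syk, no ratio was given. With the median B220 of the 44 wells as the limit it shrank to -0.36, so the difference rests on the 7 brightest wells.

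**Figure D4:**
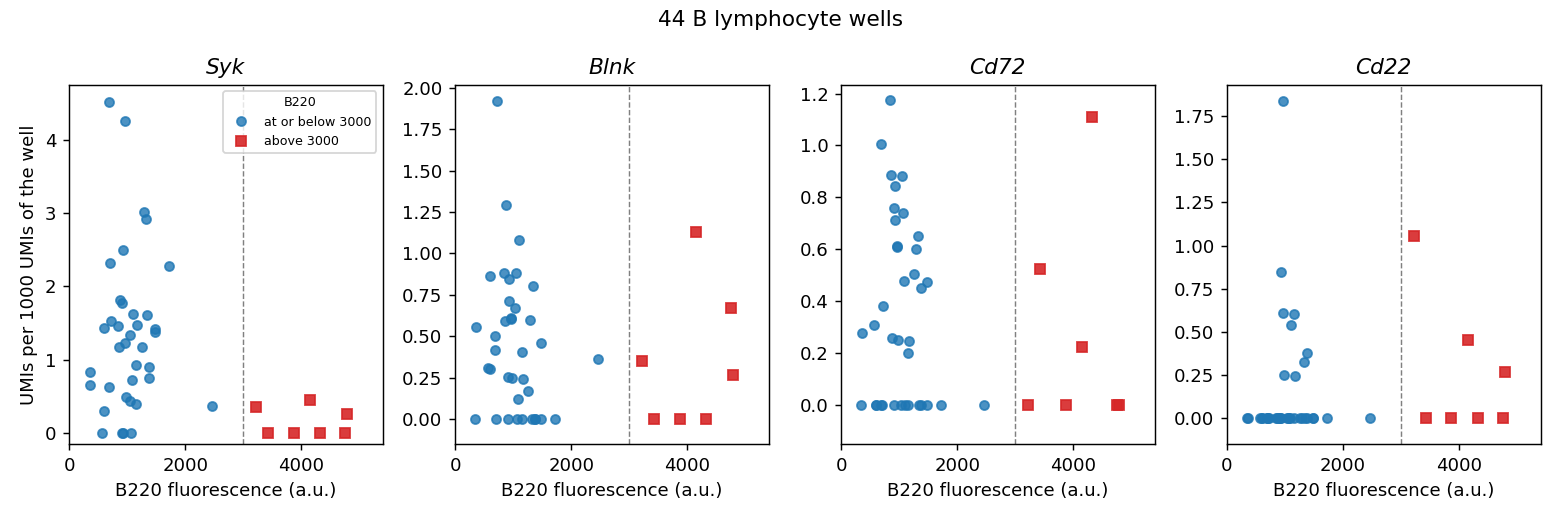
UMIs of Syk, Blnk, Cd72 and Cd22 per 1000 UMIs on mouse genes in each of the 44 B lymphocyte wells (vertical) against its B220 fluorescence in arbitrary units (horizontal), with the 7 wells above 3000 as squares. The squares for Syk lie at the bottom of the panel, with 4 UMIs in all, while those for the other 3 genes reach into the range of the circles.

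Of the 4 relatives of these genes described here, which act below other receptors, 3 had at least 20 UMIs. Among these 3, 2 were lower in B lymphocytes than in T lymphocytes and 2 lower than in granulocytes. None was called lower against erythroblasts or progenitor/stem cells, and none higher against any population. Of all genes, 12.3% were called lower against T lymphocytes and 9.93% against granulocytes. Zap70, the T cell counterpart of Syk, had 32 UMIs in T lymphocytes, 1 in B lymphocytes and 2 in granulocytes, and was 21.7-fold (3.62 to 883) higher in T than in B lymphocytes. Each lymphocyte population thus counted mainly its own kinase of this pair. Lcp2, the adaptor used in place of Blnk, had 0 UMIs in B lymphocytes, 15 in T lymphocytes, 26 in granulocytes, 3 in erythroblasts and 25 in progenitor/stem cells. It was at least 3.39-fold higher in T lymphocytes than in B lymphocytes at the floor of 3 UMIs, with an exact interval from 2.43-fold, so that Blnk and Lcp2 were each at 0 in the lymphocytes where the other was counted. Plcg1, the counterpart of Plcg2, had 5 UMIs in all, 1 in T lymphocytes and 4 in progenitor/stem cells. Cd33, a lectin of the same family as Cd22, had 52 UMIs in granulocytes and at most 3 elsewhere.

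**Figure D5:**
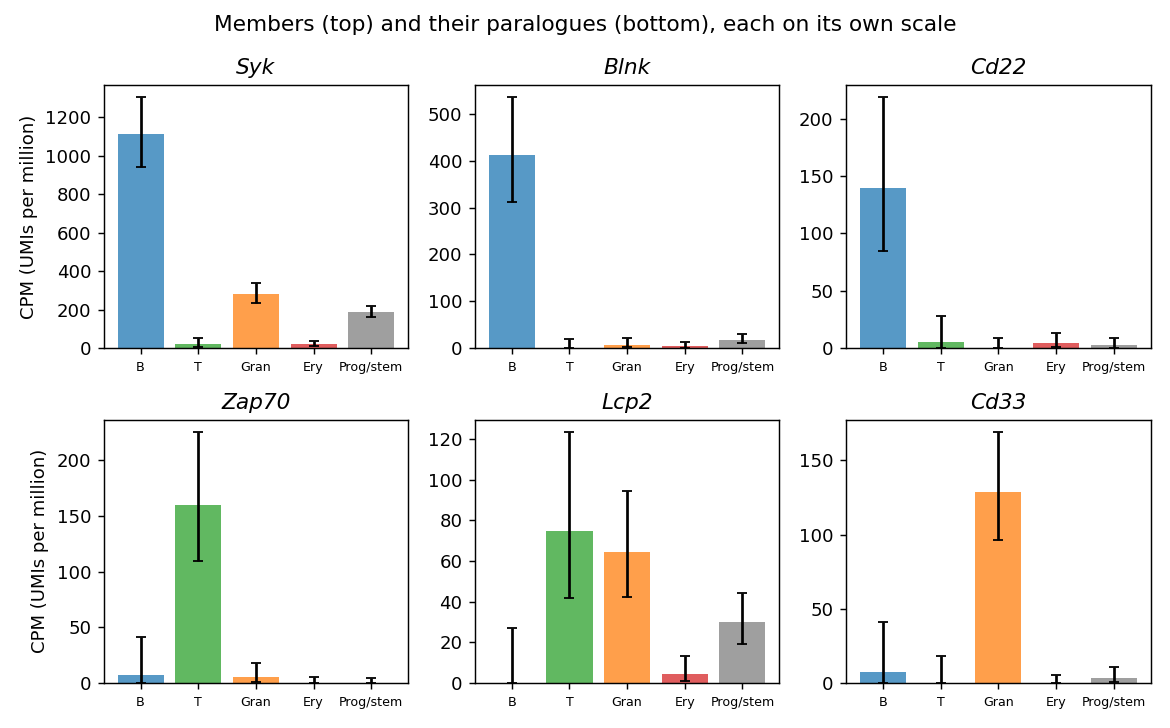
Summed level (CPM) of Syk, Blnk and Cd22 (top) and of their relatives Zap70, Lcp2 and Cd33 (bottom) in the 5 populations, each on its own scale, with 95% exact Poisson intervals. Zap70 peaks in T lymphocytes and Cd33 in granulocytes, while Lcp2 is at 0 UMIs in B lymphocytes, where Blnk peaks.

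The rest of the pathway was described by 5 lists of 69 genes, of which 66 had a row in the table and 61 had at least 20 UMIs. Among these 61, 19 were higher and 10 lower in B than in T lymphocytes, 24 and 7 against granulocytes, 38 and 2 against erythroblasts, and 22 and 6 against progenitor/stem cells. The shares of all genes that were higher and lower were 8.90% and 12.3% against T lymphocytes, 23.0% and 9.93% against granulocytes, 26.1% and 10.9% against erythroblasts, and 8.26% and 14.8% against progenitor/stem cells. Scaling to the ERCC controls turned the last pair of counts for the lists into 16 higher and 24 lower, and TMM scaling turned those against granulocytes into 18 and 13. With ERCC scaling the counts against T lymphocytes were 17 and 15, and with either scaling those against erythroblasts were 34 and 5. The median log2 ratio of the lists was 0.35, 0.90, 3.80 and 0.74 in these comparisons, and that of all genes was -0.18, 0.49, 0.45 and -0.29.

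The list of the receptor complex and its coreceptors carried the clearest pattern, with 7 of 7 genes higher against T lymphocytes and erythroblasts and 6 of 7 against the other 2 populations. Of all genes, 8.90% were higher against T lymphocytes, 26.1% against erythroblasts, 23.0% against granulocytes and 8.26% against progenitor/stem cells. Ighm, the heavy chain of IgM, was at 4668 CPM in B lymphocytes and 54.0 to 215 CPM elsewhere, Igkc at 3284 CPM and 45.5 to 69.4 CPM, and Cd79b at 1370 CPM and 13.5 to 34.7 CPM. The exception was Cd81, a tetraspanin of the coreceptor complex, which many cells carry and which was at 125 CPM in B lymphocytes and 144 CPM in progenitor/stem cells.

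Among the 5 kinases next to the receptor, 2 were higher and 1 lower than in T lymphocytes, while 3 were higher than in granulocytes, 3 than in erythroblasts and 1 than in progenitor/stem cells. The shares higher were 40.0%, 60.0%, 60.0% and 20.0%, beside 8.90%, 23.0%, 26.1% and 8.26% of all genes. The share lower than in T lymphocytes was 20.0%, beside 12.3%. With 5 genes, 1 call alone makes 20.0%. Blk, a Src family kinase of B cells, was at 383 CPM in B lymphocytes and 4.96 to 15.0 CPM elsewhere. Fyn, a Src family kinase of T cell receptor signalling, had 22 UMIs in T lymphocytes and 1 in B lymphocytes, where it was 14.9-fold (2.41 to 615) lower. Tec, of the same family as Btk, had 12 UMIs and 88.4 CPM in B lymphocytes, above granulocytes at 34.7 CPM, while its ratio to progenitor/stem cells at 45.5 CPM was not clear of counting error (log2 0.96, -0.11 to 1.92). Csk, which holds the Src kinases inactive, was at 272 CPM in B and 269 CPM in T lymphocytes. Lyn, the main Src family kinase of B cells, had 1 UMI in B lymphocytes and 16 in granulocytes. It was named after its values had been seen, as another component that, like Btk and Plcg2, was hardly counted in the B wells.

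Of the 14 adaptors and lipid kinases with enough UMIs, 3 were higher and 4 lower than in T lymphocytes, 3 and 1 against granulocytes, 7 and 1 against erythroblasts and 2 and 3 against progenitor/stem cells. The shares higher were 21.4%, 21.4%, 50.0% and 14.3%, beside 8.90%, 23.0%, 26.1% and 8.26% of all genes. The shares lower were 28.6%, 7.14%, 7.14% and 21.4%, beside 12.3%, 9.93%, 10.9% and 14.8%. Against granulocytes the share higher was near that of all genes, and the shares lower against granulocytes and erythroblasts did not exceed it. Pik3cd, the lymphocyte catalytic subunit of PI3 kinase, was at 133 CPM in B and 314 CPM in T lymphocytes. Its regulatory partner Pik3r1 was at 125 CPM in B lymphocytes and highest in progenitor/stem cells, at 255 CPM. Vav1, an exchange factor for Rac, was at 95.7 CPM in B lymphocytes, 119 to 159.7 CPM in T lymphocytes, granulocytes and progenitor/stem cells, and 1.5 CPM in erythroblasts. Cbl, a ubiquitin ligase that ends signals, was at 147 CPM in B lymphocytes and highest in granulocytes at 265 CPM. None of these 4, named for the most UMIs over all wells, was highest in B lymphocytes, but other genes of the list were. Bank1, a scaffold of B cells, had 20 UMIs in B lymphocytes and 0 to 2 elsewhere, and Pik3ap1, an adaptor for PI3 kinase, had 18 there and 0 to 10 elsewhere. Both were called higher in B lymphocytes in all 4 comparisons and were named after their values had been seen.

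The 23 genes further downstream gave 2 higher and 4 lower against T lymphocytes, 9 and 3 against granulocytes, 14 and 0 against erythroblasts, and 8 and 3 against progenitor/stem cells. The shares higher were 8.7%, 39.1%, 60.9% and 34.8%, beside 8.90%, 23.0%, 26.1% and 8.26% of all genes. Only the share against T lymphocytes was at the level of all genes. The shares lower were 17.4%, 13.0%, 0% and 13.0%, beside 12.3%, 9.93%, 10.9% and 14.8%. Those against granulocytes and progenitor/stem cells were near the shares of all genes. Ppp3ca, the catalytic subunit of calcineurin, was at 346 CPM in B lymphocytes and 424 CPM in granulocytes, Stim1, the calcium sensor of the endoplasmic reticulum, at 162 CPM in B and 215 CPM in T lymphocytes, and Nfatc3, a calcineurin target, at 162 and 259 CPM. Mapk3, the kinase ERK1, was at 29.5 CPM in B lymphocytes and 265 CPM in granulocytes.

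Of 12 inhibitory receptors and phosphatases, the group to which Cd22 and Cd72 belong by function, 5 were higher and 1 lower against T lymphocytes, 3 and 3 against granulocytes, 7 and 1 against erythroblasts, and 5 and 0 against progenitor/stem cells. The shares higher were 41.7%, 25.0%, 58.3% and 41.7%, beside 8.90%, 23.0%, 26.1% and 8.26% of all genes. The shares lower were 8.33%, 25.0%, 8.33% and 0%, beside 12.3%, 9.93%, 10.9% and 14.8%. Against granulocytes the share higher was near that of all genes, and the shares lower exceeded it only against granulocytes. Ptpn6, the phosphatase that both coreceptors recruit, was at 309 CPM in B lymphocytes, 289 CPM in T lymphocytes, 409 CPM in granulocytes, 170.1 CPM in progenitor/stem cells and 25.5 CPM in erythroblasts. It was therefore counted in all 5 populations, whereas Cd22 was counted in B lymphocytes and hardly elsewhere. Inpp5d, the lipid phosphatase SHIP1, was at 228 CPM in B lymphocytes and 182 CPM in progenitor/stem cells. Dok3, an adaptor that recruits it, was at 390.3 CPM in B lymphocytes and 263 CPM in granulocytes, with a log2 ratio of 0.57 (0.07 to 1.06). Pirb, an inhibitory receptor of myeloid cells, was at 553 CPM in granulocytes and had 3 UMIs in B lymphocytes.

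For each gene, the genes with the most similar pattern were found by its share profile, the CPM in each population divided by the sum over the 5, among 6317 genes with at least 50 UMIs. Distances are Euclidean over 5 points that come from the same libraries for all genes. B lymphocytes took 92.2% of this sum for Cd22, 88.4% for Cd72, 68.4% for Syk, 93.2% for Blnk, 11.9% for Btk and 0% for Plcg2. The nearest genes to Blnk were Cd79b (distance 0.026), Gm30211 and Igkc, and those to Cd22 were Blk (0.017), Ighd and Vpreb3, nearly all of them known from B cells. Cd72 was nearest to Snn (0.032), Ighm and Siglecg, the last an inhibitory lectin related to Cd22. Snn, which encodes stannin, was at 552 CPM in B lymphocytes and 56.3 CPM in progenitor/stem cells, the same 2 populations as Cd72. Syk had no gene as close, with Edem3 (0.117), Spns3 and Pou2f2, the octamer-binding factor Oct-2, as the nearest 3. Btk was nearest to Rnf130 (0.065), Plxnc1 and Hcfc1r1, all 3 highest in granulocytes or progenitor/stem cells. Plcg2 was nearest to Ebi3 (0.004), Adam15 and Tm6sf1, which rests on its 7 UMIs.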

How the data were processed

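The authors deposited UMI-deduplicated counts, not normalized, with 1 column per well of the plate. According to the paper, scPipe aligned the reads, assigned them to exons, demultiplexed them by designed barcodes and collapsed them to UMIs. For these counts the aligner version, genome build, annotation and use of strand were not given in the sources used here. Each column was assigned to the sample of its well, and 9 columns without a sample were left out. Symbols and coordinates came from GENCODE M21, which may not be the authors' build, and upstream sequences from RefSeq (GRCm38.p6).

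Counts were summed per sorted population and scaled to CPM on the UMIs of mouse genes, ERCC controls (74 rows) left out. Each population is 1 sample, so no test was run. Intervals (95%) are exact Poisson for sums, exact binomial for shares and exact conditional binomial for ratios, and cover counting error only. Between 426 and 24033 UMIs per well were counted in wells outside granulocytes, and 8 to 22425 in granulocytes. The fold rule (2-fold, floor of 3 UMIs) was first written without the condition that a population with 3 UMIs or fewer is never the higher one, which was added after the values had been seen. The genes, lists and limits were chosen with earlier results of these data known. By rule, the genes named are the 6 genes themselves, the 3 nearest genes of each by share profile, the 4 genes of each pathway list with the most UMIs and 4 relatives; markers and the exceptions stated in the text come beside these. Python 3.11.15, numpy 2.4.6, pandas 2.3.3, scipy 1.17.1 and matplotlib 3.10.9 were used, and edgeR 4.0.16 in R 4.3.3 for TMM factors alone. The interval and call steps were tested on simulated counts. Alternatives changed the scaling, the wells, the floor, the fold, the count minimum and the similarity measure. Some genes of the lists are not reported here, and all list counts were computed without them.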

Additional observations from a re-analysis of the deposited data

How the results depend on the processing

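With 1 sample per population there was no replicate to leave out. No paired analysis was possible because all wells came from 1 mouse, well numbers pair nothing across populations, and no test was run. Over 86 results and 576 alternative values, 478 stayed within their counting interval or within 1.5 times the count, 98 moved further and 0 called values changed sign. All 18 log2 ratios of the 6 genes that could be given kept their sign. Under the fold rule as used, a ratio whose direction the floor would turn was not given, so such a turn was not counted.

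The number of the 6 genes higher in B lymphocytes was 4 in every comparison under all scalings and choices of wells. It was 3 against granulocytes with a 4-fold rule (Syk was lost), 5 against T lymphocytes and erythroblasts with a floor of 1 UMI (Btk added), and 5 against progenitor/stem cells with the floor applied in either population (Plcg2, at 0 UMIs in B lymphocytes).

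TMM scaling gave log2 ratios of 1.31 for Syk and 3.57 for Cd22 over granulocytes and 5.45 for Cd72 over erythroblasts, and a background of 12.0% against granulocytes. Its median over all genes was -0.21 there, against 0.49 with CPM. Scaling to the ERCC controls, which moved the median over all genes to -1.44 against progenitor/stem cells, gave 1.61, 4.52 and 1.23 for Syk over granulocytes, erythroblasts and progenitor/stem cells, 4.99 and 2.09 for Cd72 over erythroblasts and progenitor/stem cells, and 4.35 and 3.20 for Blnk over T lymphocytes and progenitor/stem cells. The background was then 5.05% against T lymphocytes, 14.6% against erythroblasts and 2.16% against progenitor/stem cells. With plate row A alone it was 14.8% against granulocytes and with row B alone 16.5% against erythroblasts. A floor of 1 UMI gave 15.3% against T lymphocytes and the floor in either population 13.0% against progenitor/stem cells. A 1.5-fold rule gave 15.5% against T lymphocytes and 13.8% against progenitor/stem cells. A 4-fold rule gave 7.36% against granulocytes, 16.1% against erythroblasts, 2.23% against T lymphocytes and 2.89% against progenitor/stem cells, and counting all genes with at least 1 UMI gave 11.6%, 13.1%, 4.6% and 4.57%. Apart from what each alternative changes by construction, the cause of these moves was not tested.

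Thinning lowered the shares of wells of Syk to 58.1% in B lymphocytes, 29.8% in granulocytes, 18.9% in progenitor/stem cells, 3.16% in erythroblasts and 2.38% in T lymphocytes. Blnk came to 41.9% and 1.05% in B lymphocytes and progenitor/stem cells, Cd72 to 25.6% in B lymphocytes, 4.21% in progenitor/stem cells and 0% in T lymphocytes, and Cd22 to 14.0%, 0% and 0% in B lymphocytes, T lymphocytes and erythroblasts. Btk came to 4.26% in granulocytes, 4.21% in progenitor/stem cells and 0% in T lymphocytes and erythroblasts, and Plcg2 to 0% in progenitor/stem cells. Of the 3 nearest genes, a mean over wells kept 1 for Cd72, 1 for Syk, 0 for Btk and 0 for Plcg2, and a minimum of 100 UMIs kept 1 for Syk and 1 for Plcg2. In the split of B wells by B220, whose alternatives were chosen after seeing the data, the log2 ratio of Syk was -0.36 with the median as the limit and that of Blnk -1.35 in plate row B alone, with other values of Blnk between -0.96 and 0.90. Depth limits Btk and Plcg2 most, with 2 and 0 UMIs in B lymphocytes.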
